A study of Mus musculus with 2 samples.

Results

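The serotonin receptor genes are described here in adult mouse brain: Htr1a, Htr1b, Htr1d, Htr2a, Htr2c, Htr3a, Htr4, Htr5a, Htr6 and Htr7. They were chosen by name, through the Ensembl identifier with its version removed, and make up 10 of the 43346 genes in the deposited gene tables and 26 of the 103639 rows in the transcript tables. The RNA came from the brain of 1 male mouse of the inbred strain C57BL/6J at 10 weeks of age, with no treatment and no transgene named. Poly(A) RNA was sequenced in 2 libraries, which the labels call technical replicates 1 and 2 of a single biological replicate, and replicate 2 was added later. With 1 group, the comparison the design allows is library against library. A mean ± SD below is over 2 libraries of 1 mouse, so it holds no difference between animals, and p-values compare these libraries only.

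Serotonin is made by raphe neurons of the brainstem, whose axons reach most of the brain, and its action in a target cell depends on which receptors that cell carries. The Htr1 and Htr5 receptors couple to Gi/o proteins and lower cyclic AMP, the Htr2 receptors couple to Gq and release calcium, and Htr4, Htr6 and Htr7 couple to Gs and raise cyclic AMP. Htr3a is the exception, a subunit of a cation channel that serotonin opens directly. In bulk tissue, fewer cells of a type and less RNA per cell cannot be told apart.

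The widest difference in transcript form lay in Htr2c, the Gq-coupled receptor of forebrain, midbrain and choroid plexus (ENSMUSG00000041380.9, GRCm38 chrX:146962513-147197277, plus strand). Its transcripts Htr2c-201 and Htr2c-207 differ at the end of exon 5, a coding exon of 201 bases at chrX:147169570-147169770. The exon is shown because the estimated balance of the gene turns on it, with capitals for the 95 bases (chrX:147169676-147169770) that Htr2c-207 lacks. All sequences are those of GENCODE M21 transcripts, written 5′ to 3′ on the strand of the gene.
Htr2c exon 5: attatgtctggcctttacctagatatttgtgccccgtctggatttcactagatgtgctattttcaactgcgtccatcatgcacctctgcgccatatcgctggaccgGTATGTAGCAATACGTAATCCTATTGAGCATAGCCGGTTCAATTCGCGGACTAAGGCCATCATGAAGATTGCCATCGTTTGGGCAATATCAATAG
Without those bases the reading frame of Htr2c-207 ends after 172 codons, against 459 in Htr2c-201. The known truncated form of the receptor, background and not a result here, arises by this skip and does not bind serotonin. Codons 157 to 161 of the full reading frame, where adenosines are known to be edited to inosine in brain, lie in bases 11 to 25 of the capitals.
Htr2c codons of the editing sites: ATACGTAATCCTATT
Only Htr2c-201 carries these codons among these 2 transcripts, and the deposited tables hold no base-level measure of editing.

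Replicate 1 was assigned mostly to the shorter Htr2c form and replicate 2 mostly to the full form. Htr2c-207 held 76.38% of the TPM of the gene in replicate 1 and 16.81% in replicate 2 (TPM is a transcript level per length, scaled so that all libraries have an equal total). Htr2c-201 held 22.56% in replicate 1 and 83.19% in replicate 2. The leading transcript of the gene was thus a different one in each library. In levels, Htr2c-207 stood at 28.37 TPM in replicate 1 and 4.03 in replicate 2. Htr2c-201 stood at 8.38 TPM in replicate 1 and 19.94 in replicate 2. The estimated counts behind these were 1822.47 and 195.11 for Htr2c-207, and 549.45 and 985.89 for Htr2c-201. These counts are estimates, since the forms differ only by the 95 bases, 1 base at the start and 3 bases at the end and share all other bases. The posterior SD of the count of Htr2c-207 was 147 in replicate 1 and 90.6 in replicate 2.

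On the deposited TPM scale, the intervals of each form did not overlap between the libraries. They ran from 21.5 to 29.9 in replicate 1 and from 1.27 to 7.61 in replicate 2 for Htr2c-207. For Htr2c-201 they ran from 4.51 to 12.3 and from 13.7 to 20.7. This gap for Htr2c-201 is particular to that scale. Leaving out mitochondrial genes lowers every log2 TPM ratio by 0.94, which is enough to make its intervals overlap. Posterior mean shares gave the same order, 74.04% and 18.43% for Htr2c-207 against 22.49% and 76.58% for Htr2c-201. The other 5 Htr2c transcripts together stayed in the small remainder, and none reached 1% of the gene in either library by the deposited share.

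**Figure D1:**
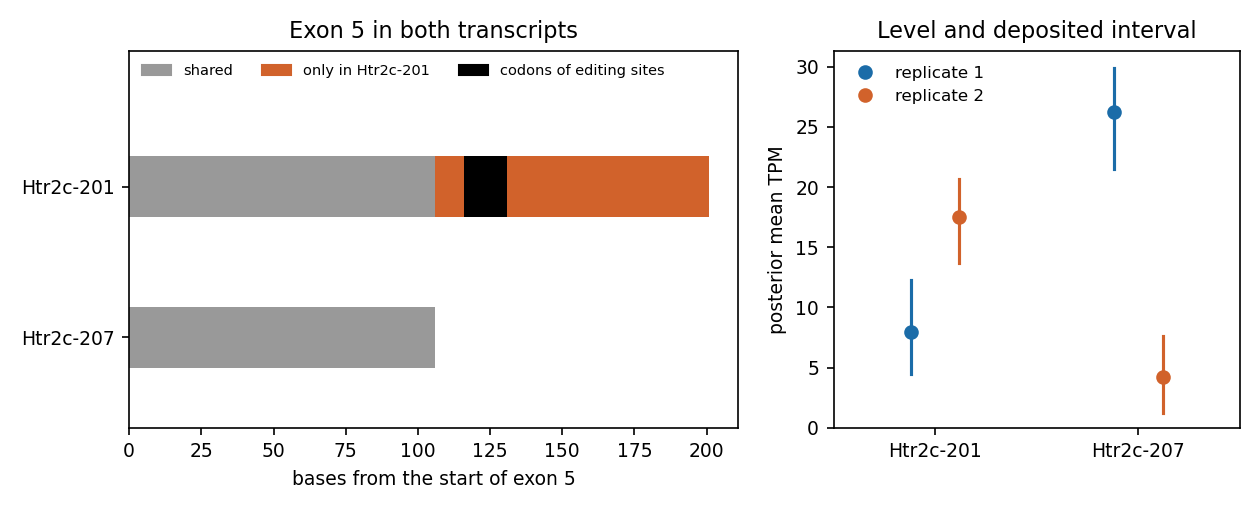
Left, exon 5 of Htr2c in both transcripts, in bases from the start of the exon: grey bases are shared, orange bases are present only in Htr2c-201, and the black block marks the codons of the known editing sites. Right, posterior mean TPM of both transcripts in each library as points, with the deposited interval as bars: Htr2c-207 is the higher one in replicate 1 (21.5 to 29.9) and the lower one in replicate 2 (1.27 to 7.61).

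A change of leading transcript was common in these libraries. Among 6191 genes with several transcripts and at least 100 counts in each library, the leading transcript differed in 1868 (30.2%), and in 858 (13.9%) it also lost at least 50 percentage points in replicate 2. Of the 10 receptors, Htr1b, Htr2c and Htr7 met that count minimum with several transcripts, and only Htr2c changed its leader. GC content of the forms is equal to within rounding of the whole transcript, 41.9% for each, while the 95 bases hold 43.2% and the rest of exon 5 holds 48.1%. The 3 editing enzyme genes have a median GC content of 52.0%. Adar, which edits double-stranded RNA, had levels of 7.79 and 64.14 TPM and was called higher. Adarb1, its relative, was at 24.62 and 75.16 TPM, and Adarb2, which has no known editing activity of its own, at 5.47 and 7.03, neither of them called. That is 1 of 3 called higher and 0 lower on TMM counts (explained below), against 34.5% and 24.0% of genes tested. With library totals the counts were 2 and 0 (43.6% and 7.9%). With the trend of count ratios with GC content taken out they were 0 and 0 (9.91% and 9.66%). Their part in the Htr2c forms was not tested.

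Htr2c was the most abundant receptor in both libraries at the gene level. The gene count does not depend on the split between forms. Gene TPM depends on it slightly, through an effective length of 4462.07 bases in replicate 1 and 4544.4 in replicate 2. Htr2c had 37.14 TPM in replicate 1 and 23.97 in replicate 2 (30.6 ± 9.31, SD, n = 2), from 2381 and 1181 counts. Both values lie above those of every other receptor, and the gene ranked 2209 and 5696 among all genes. It held 51.8% of the summed receptor TPM in replicate 1 and 34.5% in replicate 2. The TPM ratio of replicate 2 over replicate 1 was 0.645 (95% counting interval 0.601 to 0.692). On counts scaled by TMM, which sets the library sizes by the bulk of genes, the ratio was 0.334 (0.311 to 0.358), and the gene was called lower in replicate 2 (exact binomial test, Benjamini-Hochberg adjusted p = 2.13e-224). A gene is called at an adjusted p under 0.05 and a change of at least 2-fold.

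Choroid plexus epithelium is known for high Htr2c, so its markers were set beside this result. Their summed level was 91.17 TPM in replicate 1 and 899.1 in replicate 2, with 3 of 8 called higher and 0 lower, against 34.5% and 24.0% of all genes tested. The share called higher is near that background. With library totals instead of TMM the counts were again 3 and 0, against 43.6% and 7.9% of genes. After removal of the trend of count ratios with GC content they were 2 and 0, against 9.91% and 9.66%. Ttr, the transthyretin gene that leads this list, stood at 71.99 TPM in replicate 1 and 855.79 in replicate 2. Folr1, a folate receptor of that epithelium, had 0 counts in replicate 1 and 74 in replicate 2, while Otx2, Kl, Clic6, Kcne2 and Kcnj13 were present in both and not called. The third marker called higher was Aqp1, a water channel gene. With the GC trend taken out Aqp1 lost its call, whereas Ttr and Folr1 kept theirs. The part of these cells in the Htr2c levels was not tested.

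Htr2a, the other Gq-coupled receptor, known from cortical pyramidal cells and as a target of psychedelic drugs (ENSMUSG00000034997.4, chr14:74640840-74709494), ran against Htr2c. It had 5.34 TPM in replicate 1 and 9.81 in replicate 2 (7.58 ± 3.16, SD, n = 2), from 214 and 296 counts. Replicate 2 is the higher library, with a TPM ratio of 1.84 (1.54 to 2.2). On TMM counts the ratio was 0.93 (0.777 to 1.11), with an adjusted p of 0.45 in the exact binomial test, so the gene was not called. The direction thus turns with the scale, and the log2 count ratio became 0.50 when library totals were used instead of TMM.

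Htr1b, a Gi/o-coupled autoreceptor and heteroreceptor of axon terminals (ENSMUSG00000049511.5, chr9:81628291-81633828), was the second most abundant by mean. It had 11.1 TPM in replicate 1 and 8.54 in replicate 2 (9.82 ± 1.81, SD, n = 2), from 724 and 418 counts. Its TPM ratio was 0.769 (0.68 to 0.869). The TMM count ratio was 0.388 (0.343 to 0.439), and the gene was called lower (exact binomial test, adjusted p = 1.54e-55). The antisense gene D430036J16Rik overlaps its exons, with 75 counts in replicate 1 and 56 in replicate 2, so reads of these genes may be shared if counting did not use strand; the setting was not stated. Nearly all of Htr1b was assigned to Htr1b-202, at 100% and 99.41%.

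Htr1a, the Gi/o-coupled autoreceptor of raphe neurons that is also found on hippocampal and cortical cells (ENSMUSG00000021721.4, chr13:105443639-105448122), had 5.59 TPM in replicate 1 and 7.0 in replicate 2 (6.29 ± 0.997, SD, n = 2), from 342 and 323 counts. The libraries differed by a TPM ratio of 1.25 (1.07 to 1.46) and by a TMM count ratio of 0.635 (0.544 to 0.742). Its adjusted p was 9.13e-09 in the exact binomial test, and the gene was not called because the change was under 2-fold. TPM and TMM counts place it on opposite sides of 1. Htr5a, a less studied receptor that also couples to Gi/o (ENSMUSG00000039106.5, chr5:27842149-27855088), had 3.64 TPM in replicate 1 and 6.15 in replicate 2 (4.89 ± 1.77, SD, n = 2), from 282 and 359 counts. It too was not called, with a TMM count ratio of 0.856 (0.73 to 1.0) and an adjusted p of 0.0637 in the exact binomial test.

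Htr1d, the Gi/o-coupled relative of Htr1b (ENSMUSG00000070687.7, chr4:136423524-136444398), was low in both libraries. It had 0.61 TPM in replicate 1 and 1.6 in replicate 2 (1.1 ± 0.7, SD, n = 2), from 24 and 47 counts. At this depth the TMM count ratio of 1.32 spans 1 (0.789 to 2.25), and the gene was not called (exact binomial test, adjusted p = 0.365). Its whole count went to Htr1d-201, whereas the posterior mean share of that transcript was 56.83% and 62.13%, which leaves the form of a gene at this depth poorly set.

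Htr7, the Gs-coupled receptor of thalamus, hippocampus and hypothalamus (ENSMUSG00000024798.11, chr19:35958734-36057507, minus strand), had nearly the same TPM in both libraries. It stood at 6.07 in replicate 1 and 6.16 in replicate 2 (6.12 ± 0.0636, SD, n = 2), from 251 and 185 counts. The TPM ratio was 1.01 (0.835 to 1.23). On TMM counts it was 0.496 (0.408 to 0.602), just past 2-fold, and the gene was called lower (exact binomial test, adjusted p = 5.6e-13). With size factors of DESeq2, or TMM factors from all genes, the log2 ratio was -0.96 and the call was lost, as it was with library totals at -0.40.

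The forms of Htr7 are known to differ in the intracellular tail. The transcripts Htr7-202 and Htr7-205 part at the end of exon 2, where Htr7-205 keeps 5 more bases, shown in capitals in the last 30 bases of that exon (chr19:35969304-35969333, minus strand).
Htr7 end of exon 2: ggcctgagagaagcgagtttgtgctGTAAG
The reading frames hold 448 codons in Htr7-202, 435 in Htr7-205 and 470 in Htr7-201, which has a further exon of 97 bases. Htr7-202 held 88.45% of the gene in replicate 1 and 39.32% in replicate 2. Htr7-205 held 11.55% and 27.64%. Htr7-204, annotated as a target of nonsense-mediated decay, held 0% and 24.32%, and Htr7-201 held 0% and 8.71%. Htr7-202 led in both libraries by the deposited share, but in replicate 2 the posterior mean share of Htr7-204, 29.77%, was above the 27.48% of Htr7-202. The deposited TPM intervals overlap between the libraries for each of Htr7-202 (1.7 to 5.38 and 2.36e-05 to 3.18), Htr7-205 (2.83e-06 to 2.03 and 0.047 to 2.92) and Htr7-204 (6.42e-06 to 1.95 and 0.498 to 3.28). Those of Htr7-201 overlap barely (1.19e-06 to 0.142 and 0.132 to 1.22). Overlap of TPM intervals with no level named does not test the shares, so a shift in the forms of Htr7 is left undecided.

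**Figure D2:**
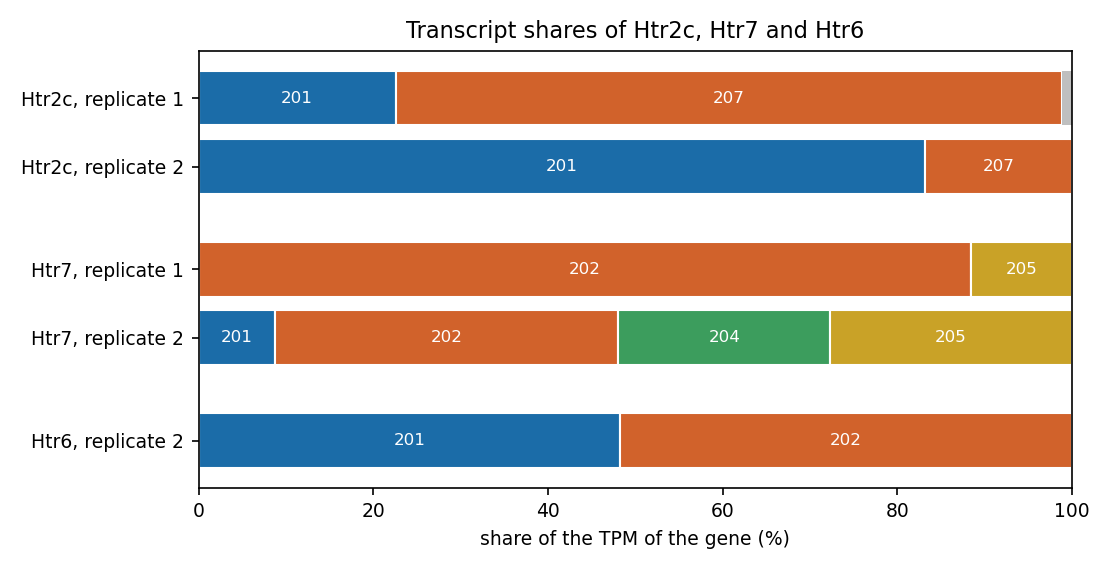
Share of the TPM of each gene held by its transcripts, in percent, per library, with the transcript number inside each bar and grey for the remaining transcripts. Htr6 had 0 counts in replicate 1 and so has 1 bar. Htr2c goes from 76.38% Htr2c-207 in replicate 1 to 83.19% Htr2c-201 in replicate 2, and Htr7-202 from 88.45% to 39.32%.

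Htr6, a Gs-coupled receptor known from striatum, cortex and hippocampus and from neuronal primary cilia (ENSMUSG00000028747.6, chr4:139061108-139075570, minus strand), was detected in replicate 2 alone. It had 0 counts in replicate 1, which allows up to 3 counts or 0.125 TPM, and 50 counts or 2.74 TPM in replicate 2. Set against 3 counts in replicate 1, the gene was 21.9-fold higher in TPM and 11.2-fold higher in TMM counts in replicate 2. These folds leave out the counting error of the 50 counts in replicate 2. The gene was called higher (exact binomial test, adjusted p = 1.8e-11). In replicate 2 its TPM was split between Htr6-202 (51.72%) and Htr6-201 (48.28%), which carry the same reading frame of 440 codons.

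Of the receptors, Htr6 has the highest GC content, 63.5% over its transcripts and 64.0% over its coding sequence. The 100 bases of highest GC content in its coding sequence (chr4:139074656-139074755, minus strand) are shown with those of the full coding sequence of Htr2c (chrX:147194016-147194115), near the other end of the range. Capitals mark G and C.
Htr6 window of highest GC: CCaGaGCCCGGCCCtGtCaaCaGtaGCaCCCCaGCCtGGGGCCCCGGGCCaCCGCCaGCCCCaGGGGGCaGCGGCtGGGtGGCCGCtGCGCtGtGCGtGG
Htr2c window of highest GC: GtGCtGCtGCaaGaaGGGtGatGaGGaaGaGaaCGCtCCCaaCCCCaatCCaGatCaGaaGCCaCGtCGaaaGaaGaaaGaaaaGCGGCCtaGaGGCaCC
The Htr6 window holds 78.0% G and C, and 38.0% of all windows of 100 bases in its coding sequence exceed 65%. The Htr2c window holds 54.0%. Among the 130 tested genes within 1 percentage point of the GC content of Htr6, 93.1% were called higher in replicate 2. Their median log2 TMM count ratio was 4.73 (quartiles 3.46 and 6.59). The 6.09 of Htr6 is set by the 0.5 added to its 0 counts, so its place among these genes cannot be read.

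Htr4, the Gs-coupled receptor of basal ganglia and hippocampus (ENSMUSG00000026322.8), was the lowest by mean TPM. It had 0.98 TPM in replicate 1 and 1.07 in replicate 2 (1.02 ± 0.0636, SD, n = 2), from 63 and 52 counts. The libraries lie close to each other in TPM, with a ratio of 1.09 (0.741 to 1.6). The TMM count ratio was 0.555 (0.377 to 0.814), under 2-fold, and the gene was not called (exact binomial test, adjusted p = 0.00223).

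Htr3a, the channel subunit, expressed in a class of cortical interneurons (ENSMUSG00000032269.7, chr9:48899213-48911099), had 1.21 TPM in replicate 1 and 2.43 in replicate 2 (1.82 ± 0.863, SD, n = 2), from 33 and 50 counts. Its TPM ratio was 2.01 (1.27 to 3.22) and its TMM count ratio 1.02 (0.644 to 1.63), and it was not called (exact binomial test, adjusted p = 1.0). Of 7 markers of the interneuron class that carries Htr3a, 1 was called higher and 2 lower, against 34.5% and 24.0% of all genes. Using library totals, the counts became 2 and 0, against 43.6% and 7.9% of genes. After removal of the trend with GC content they were 1 and 0, against 9.91% and 9.66%. The summed level of these markers was 149.2 TPM in replicate 1 and 631.0 in replicate 2. Most of that difference lies in the neuropeptide gene Cck, at 34.91 and 494.91 TPM with a GC content of 58.0%, and the part of these cells in the Htr3a levels was not tested. Htr3b, the partner subunit, had 0 counts in both libraries, which allows up to 0.0937 TPM in replicate 1 and 0.124 in replicate 2.

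**Figure D3:**
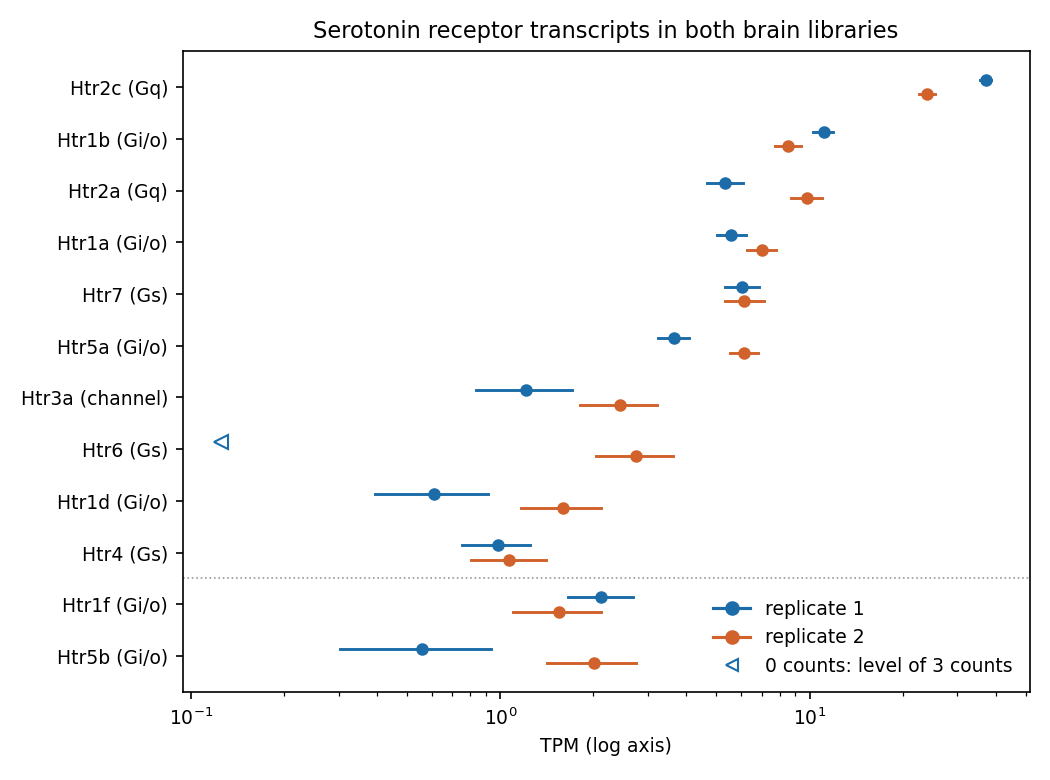
TPM of the receptor genes in replicate 1 (blue) and replicate 2 (orange), on a log axis, with 95% exact Poisson counting intervals as bars, ordered by mean TPM. The open triangle is the level of 3 counts for Htr6, which had 0 counts in replicate 1. Of the receptor genes outside the 10, Htr1f and Htr5b stand below the dotted line, and Htr2b and Htr3b, with too few counts to test, are not drawn. Htr2c lies above the rest in both libraries (37.14 and 23.97).

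In order of mean TPM the receptors were Htr2c, Htr1b, Htr2a, Htr1a, Htr7, Htr5a, Htr3a, Htr6, Htr1d and Htr4. Htr2c did not overlap its neighbour in the ranges of the 2 libraries. From Htr1b down to Htr5a each range overlapped the next, so these ranges do not set the order of neighbours there. Within each library, Htr7 was above Htr5a (6.07 against 3.64 TPM in replicate 1, 6.16 against 6.15 in replicate 2). The other neighbours in that stretch changed order between the libraries. In deposited TPM, the range of Htr1b lay wholly above those of Htr1a, Htr7 and Htr5a. Without mitochondrial genes it overlapped 2 of them. There Htr1b had 30.1 TPM in replicate 1 and 12.1 in replicate 2, Htr1a 15.2 and 9.88, and Htr7 16.5 and 8.69. Htr5a was in place 6 in both libraries by deposited TPM. Htr5a did not overlap Htr3a, and from Htr3a to Htr4 the ranges overlapped again. The receptors thus fall into Htr2c alone, 5 genes with means of 4.89 to 9.82 TPM and 4 genes with means of 1.02 to 1.82 TPM.

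By coupling, the Gq receptor genes led in both libraries, with all transcripts of each gene counted. They summed to 42.48 TPM in replicate 1 and 33.78 in replicate 2, or 59.3% and 48.6% of the receptor total. The 4 Gi/o receptors summed to 20.94 and 23.29 TPM (29.2% and 33.5%). The 3 Gs receptors summed to 7.05 and 9.97 TPM (9.84% and 14.4%), and the channel subunit made up 1.69% and 3.5%. At the gene level the order of the classes was the same in both libraries. The Gq sum includes Htr2c-207 (28.37 and 4.03 TPM), which has the skip of the form known not to bind serotonin. In replicate 1, Htr2c-201 had 8.38 TPM and Htr2a 5.34, against 20.94 for Gi/o, so the lead of Gq there rests on Htr2c-207. In replicate 2 they had 19.94 and 9.81 TPM, against 23.29 for Gi/o. The summed level of all 10 was 71.68 TPM in replicate 1 and 69.47 in replicate 2 (70.6 ± 1.56, SD, n = 2). That closeness is particular to the deposited TPM scale. Rescaled without mitochondrial genes and their nuclear copies, the sums were 195.0 TPM in replicate 1 and 98.0 in replicate 2, and the counts summed to 4314 and 2961.

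Counted over the receptors, Htr6 was called higher in replicate 2, 1 of 10, against 34.5% of the 16320 genes tested. Htr2c, Htr1b and Htr7 were called lower, 3 of 10, against 24.0% of genes. With library totals in place of TMM, Htr6 was again called higher (43.6% of genes) and 0 of 10 were called lower (7.9% of genes). A share of 10 genes is coarse, so nothing particular to the receptors is read from these counts. The scale sets the side: the median log2 TPM ratio of the receptors was 0.45, against 0.71 over all genes tested, with 8 of 10 above 0 against 73.6% of genes. On TMM counts the median was -0.44 against 0.09, with 3 of 10 above 0 against 51.6% of genes. Log2 TPM ratios are of TPM + 1, which understates the change of low genes.

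Library-wide values touch all of these comparisons. Gene counts summed to 18302506 for replicate 1 and to 17828479 for replicate 2. Mitochondrial genes with 7 nuclear copies of them took up 63.2% of the TPM of replicate 1 and 29.1% of that of replicate 2. Taken out, they shift every log2 TPM ratio down by 0.94 before 1 is added, and TMM shifts every log2 count ratio down by 0.61 relative to totals. Without them the level of Htr2c became 101.0 TPM in replicate 1 against 33.8 in replicate 2, that of Htr2a 14.5 against 13.8, and that of Htr7 16.5 against 8.69. Neuronal markers were abundant in both libraries (4581 and 3870 TPM summed over 4 genes), as the tissue label has it, and of 4 anterior pituitary markers, 4 were at 0 in replicate 1 and 2 in replicate 2.

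The count ratio of a gene went with its GC content across the libraries. Spearman's rho was 0.90 over 16263 tested genes with a known sequence, and 0.62 over the 10 receptors (Pearson's r 0.85), or 0.48 without Htr6 (Pearson's r 0.42). These points are genes of the same 2 libraries, so the values are descriptions. The receptors span 41.3% (Htr2a) to 63.5% (Htr6).

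Set beside genes within 1 percentage point of their own GC content, several receptors sat near the median. Htr2c had a log2 TMM count ratio of -1.58 against a median of -1.40 (quartiles -1.62 and -1.18). Htr4 had -0.85 against -0.99, and Htr1d 0.38 against 0.04, both within the quartiles of such genes. Others stood apart. Htr2a, at -0.11, was above a median of -1.49 (quartiles -1.69 and -1.27), though its GC content was read from a later gene model of 5606 bases where the deposited length is 2971. Its coding sequence has a GC content of 48.4%. Htr5a, at -0.22, was above -0.86 (quartiles -1.12 and -0.55). Htr3a, at 0.02, was below 1.38 (quartiles 0.71 and 2.21), and Htr7, at -1.01, was below 0.03 (quartiles -0.37 and 0.51). Htr1b, at -1.36, and Htr1a, at -0.65, were also below the lower quartiles of -1.19 and -0.48.

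**Figure D4:**
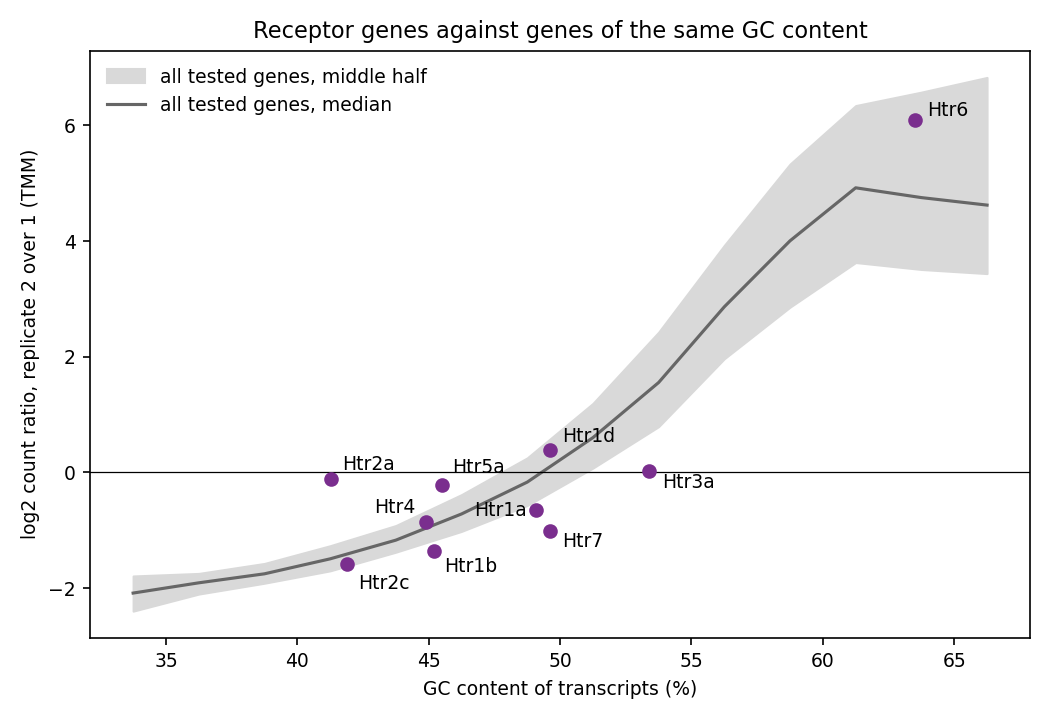
Log2 TMM count ratio of replicate 2 over replicate 1 against GC content, for the 10 receptors (points) and all tested genes in classes of GC content (line, median; grey band, between the quartiles). Htr2c, Htr4 and Htr1d lie within the band, whereas Htr2a and Htr5a lie above it and Htr3a, Htr7, Htr1a and Htr1b below it. The point of Htr6 at 6.09 rests on the 0.5 added to 0 counts.

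With the smooth GC trend taken out of the count ratios, the receptors called were different ones. Htr2a was called higher, 1 of 10 against 9.91% of genes, at a log2 ratio of 1.38 (exact binomial test, adjusted p = 1.24e-25). Htr7 and Htr3a were called lower, 2 of 10 against 9.66% of genes, at -1.08 (adjusted p = 5.97e-14) and -1.42 (adjusted p = 0.000127, same exact binomial test). Htr2c (-0.18), Htr1b (-0.46) and Htr6 (0.31) were no longer called. For Htr6, whose ratio rests on 0 counts in replicate 1, the fitted trend was 5.77, above the 4.73 median of genes of its GC content. With a trend on the GC content of the coding sequence instead, an alternative chosen after seeing the data, other receptors were called again. Htr6 (3.49) was called higher, 1 of 10 against 19.3% of genes, and Htr1a (-3.01), Htr1b (-2.98), Htr3a (-1.32), Htr5a (-1.82) and Htr7 (-3.08) lower, 5 of 10 against 18.1%. Htr2a, at 0.49, was not called there, so its higher call rests on the GC content of the whole transcript model. Htr7 was called lower without a trend and with each of these GC trends, whereas Htr6 and Htr1b kept their call with the coding trend only.

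Of the receptor genes outside the 10, Htr1f, a Gi/o-coupled receptor and the target of a migraine drug, had 2.12 TPM in replicate 1 and 1.55 in replicate 2, from 71 and 39 counts. It was called lower (exact binomial test, adjusted p = 6.72e-07), but not with library totals (log2 ratio -0.82) or with the GC trend taken out (0.26). Htr5b, which is a pseudogene in humans, had 0.56 and 2.01 TPM from 14 and 38 counts and was not called (adjusted p = 0.077, exact binomial test). It was called higher with library totals (1.45) and lower with the GC trend taken out (-1.39). Htr2b, known from heart and gut, had 0 counts in replicate 1 and 1 in replicate 2, too few to test, and overlaps exons of Psmd1 on the other strand.

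Of 8 tested genes that make and remove serotonin, 4 were called lower and 0 higher on TMM counts, against 24.0% and 34.5% of all genes. With library totals 0 were lower and 2 higher (7.9% and 43.6% of genes), and with the GC trend taken out 0 were lower and 1 higher (9.66% and 9.91%). The lower calls named next are thus those on TMM counts alone. Maob and Maoa, the monoamine oxidases that break serotonin down, went from 27.57 to 21.03 and from 24.49 to 18.47 TPM and were called lower. Tph2, the rate-limiting enzyme of serotonin synthesis in neurons, had 12.13 and 9.83 TPM and was called lower. Ddc, which completes synthesis, was at 11.9 and 13.61 TPM and not called, and Slc6a4, the serotonin transporter, was at 1.78 and 5.28 TPM and not called. RNA of serotonergic neurons was thus present in both libraries. The 6 markers of such neurons summed to 23.17 and 24.49 TPM, 5 were tested and 2 of them, Tph2 and Slc18a2, were called lower on TMM counts. Neither was called with library totals, where Slc6a4 was called higher, nor with the GC trend taken out, where Gata3 and Slc22a3 were called lower. Their part in the Htr1a and Htr1b levels was not tested.

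Partners of the Gi/o and Gq receptors were called in both directions on TMM counts. Of 10 Gi/o partners and targets 2 were called higher and 3 lower, against 34.5% and 24.0% of genes. With library totals the counts were 3 and 0 (43.6% and 7.9% of genes), and with the GC trend taken out 0 and 1 (9.91% and 9.66%). Rgs4, which shortens G protein signals, was at 352.2 and 413.2 TPM, and Gnao1, the Go alpha subunit, at 202.23 and 303.88, neither called. Gnai1, a Gi alpha subunit, was at 155.2 and 109.28 TPM and called lower. Of 9 Gq partners 3 were called higher and 2 lower on TMM counts, against 34.5% and 24.0% of genes. With library totals the counts were 3 and 0 (43.6% and 7.9%), and with the GC trend taken out 1 and 0 (9.91% and 9.66%). Plcb1, the phospholipase that Gq activates, was at 93.01 and 89.07 TPM and called lower. Prkcb, a protein kinase C, was at 241.36 and 254.04 TPM, and Itpr1, the calcium release channel, at 46.37 and 102.35, neither called.

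The lists of Gs partners and receptor-binding proteins had a median GC content of 54.5% and 53.5%, against 48.1% and 49.4% for the Gi/o and Gq lists. Of 10 Gs partners 5 were called higher and 0 lower, against 34.5% and 24.0% of genes. With library totals the counts were 9 and 0 (43.6% and 7.9% of genes), and with the GC trend taken out 0 and 3 (9.91% and 9.66%). Prkar1b, a regulatory subunit of protein kinase A, went from 97.74 to 485.83 TPM and was called higher, whereas Gnas, the Gs alpha subunit, at 496.97 and 1285.79, and Adcy1, an adenylyl cyclase, at 42.6 and 121.31, were not called. Of 10 receptor-binding and receptor-regulating proteins 7 were called higher and 0 lower (34.5% and 24.0% of genes). With library totals these counts were again 7 and 0 (43.6% and 7.9%), and with the GC trend taken out 1 and 0, near the 9.91% and 9.66% of genes. Dlg4, the postsynaptic scaffold, went from 9.78 to 345.13 TPM, Grk2, a receptor kinase, from 13.24 to 127.88, and Arrb1, an arrestin, from 16.29 to 83.96. The Gs-coupled receptors themselves did not move as 1 group on TMM counts: Htr6 was called higher, Htr7 lower and Htr4 neither. With library totals only Htr6 was called, higher, and with the GC trend taken out only Htr7, lower.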

How the data were processed

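Each library has a gene table and a transcript table. Expected counts, estimates that need not be whole, were deposited by the authors. TPM and FPKM per gene and transcript were deposited by the authors, as were the percent of a gene held by each transcript and, per the file headers, posterior means and interval bounds, with no level named. The deposited listings name mm10 and GENCODE M4. Quantifier and strand setting: not given in the sources used here. Numbered rows (26248) and spike-in rows (97), with 0 counts in replicate 1 and 1 in replicate 2, were left out.

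Symbols, coordinates and sequences came from GENCODE M21 (GRCm38, the same assembly) through unversioned identifiers, and 42462 genes had a symbol. The deposited transcript lengths differ from M21 for Htr1a, Htr2a, Htr4 and Htr5a. GC content is the mean over transcripts weighted by TPM.

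Counts were rounded and compared per gene by a two-sided exact binomial test (scipy 1.17.1) where both libraries together held at least 10 counts, and folds used counts plus 0.5. TMM factors came from edgeR 4.0.16 in R 4.3.3 over the same genes, and size factors of DESeq2 1.42.0 were an alternative. Neither tool's own test could be fitted with 1 library per side, so differences have no replicate check. Trends were fitted by lowess (fraction 0.2, statsmodels 0.14.6). Count ratio intervals are exact Clopper-Pearson at 95%, and they and the floor of 3 counts (a share of 1.64e-05% in replicate 1 and 1.68e-05% in replicate 2) cover counting error only. Whether both libraries share an RNA extract was not stated.

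The receptors, lists and rules were chosen with earlier results of these data known. Named genes are all 10 receptors, Htr1f, Htr2b, Htr3b and Htr5b, the 3 genes of highest mean TPM of each pathway list, and Tph2, Slc6a4 and Ttr; transcripts are those with at least 10% of the gene in either library. Slc18a2, Gata3, Slc22a3, Cck, D430036J16Rik, Psmd1, Htr7-201 and the choroid plexus markers other than Ttr were named after their values were seen. Calls in the other marker lists on TMM counts, where 34.5% of all genes were higher and 24.0% lower, were 4 higher and 1 lower of 6 for striatal projection neurons, 3 and 1 of 5 for hippocampal pyramidal neurons, 1 and 2 of 4 for neurons, 2 and 2 of 4 for astrocytes, 1 and 0 of 4 for oligodendrocytes, 2 and 1 of 4 for microglia and 1 and 0 of 1 for anterior pituitary.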

Additional observations from a re-analysis of the deposited data

How the results depend on the processing

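The number of receptors called lower in replicate 2 was 3 in the report. It was 0 with library totals, 5 with no fold threshold and 5 with a trend on the GC content of the coding sequence. Of all genes tested, 24.0% were called lower in the report, 7.9% with library totals and 18.1% with the coding GC trend. With no fold threshold, 6397 of 16320 genes were called lower. The receptor count thus moved in the direction of all genes with library totals and with no fold threshold. With the coding GC trend it moved the opposite way. The number of receptors called higher, 1, was 0 without Htr6. Htr6 was the only receptor called higher, so this 0 was fixed in advance and shows nothing about stability. The median log2 ratio of the receptors, 0.45 for TPM, was -0.36 without mitochondrial genes and -0.44 for TMM counts. The mean summed TPM, 70.6, was 146.0 without mitochondrial genes, from 195.0 and 98.0. Leaving out either replicate only returns the sum of the other, 69.47 to 71.68, and shows no stability. Count ratios changed sign with library totals for Htr2a (0.50) and Htr5a (0.39). With the GC trend taken out they changed sign for Htr2a (1.38), Htr3a (-1.42), Htr4 (0.12) and Htr5a (0.62), with the length trend for Htr3a (-0.51) and Htr5a (0.03), and with the coding GC trend for Htr1d (-0.64), Htr2a (0.49) and Htr3a (-1.32). The log2 TPM ratio of Htr7, 0.02, was -0.85 without mitochondrial genes and -0.28 for FPKM. The cause of these changes was not tested. Over all genes, calls of 5638 higher and 3917 lower became 1612 and 1571 with the GC trend taken out. Calls lower became 1290 with library totals and 6397 with no fold threshold, and calls higher became 2842 with the coding GC trend.

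The alternatives of a sum without mitochondrial genes, without Htr6, with the coding GC trend, with TMM factors from all genes, with a lower count minimum for leading transcripts and with medians on the count scale were chosen after seeing the data. No paired analysis was possible because there is 1 group. Depth limits Htr1d, Htr3a, Htr4 and Htr6, whose counts were at most 63 in either library.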
